A study of Mus musculus with 2 samples.

Results

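Pcp4l1, Fcor, Chrm3, Grrp1, Capg, Pdlim3, Astn1 and Nav3 are 8 of the 32285 genes in the deposited count tables. They were chosen by name, from the measured values themselves, for their large ratio between liver sinusoidal endothelial cells (LSECs) of the Maf LSEC-KO library and those of the control library. That ratio is therefore given as a description, without a test.

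The study compared single-cell RNA libraries of CD146-selected liver endothelial cells from mice with and without endothelial Maf, a basic leucine zipper transcription factor of LSECs. There was 1 library per genotype, each pooling cells from 3 mice, so no difference between the libraries could be set against the spread between animals. The Maf LSEC-KO mice were Clec4g-iCre tg/wt with Maf fl/fl alleles; the control mice, labelled WT, were littermates that lacked the Cre transgene (Clec4g-iCre wt/wt) and, per the study's methods, carried Maf fl/fl or Maf fl/wt alleles. The Clec4g promoter, which drives the iCre, belongs to a lectin gene of LSECs and is active from late fetal life onward. The ages of these mice are not given in the labels. Throughout, presence of the Cre transgene and loss of Maf go together and cannot be told apart between the libraries.

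LSECs line the liver sinusoids as thin, fenestrated cells that take up waste from the blood, and they carry genes that capillary endothelium of other organs does not use. In capillarization, they take on features of continuous capillary endothelium instead. The 8 genes have no common pathway. They encode a muscarinic receptor, a calmodulin-binding peptide relative, a corepressor of Foxo1, several actin and microtubule regulators, a neuronal adhesion protein and a glycine- and arginine-rich protein.

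In all, 4961 control and 5423 Maf LSEC-KO cells passed the minimum of 1500 unique molecular identifiers (UMIs, each standing for 1 captured RNA molecule) and 750 genes, and the 2 libraries shared 10 barcode sequences. Once doublets and Vwf-holding endothelial cells had been taken out, 4101 control LSECs (median 8395 UMIs) and 3251 Maf LSEC-KO LSECs (median 13871 UMIs) remained. The label was checked against 8 LSEC markers: none was at 0 in either library, while their summed level, in counts per 1000000 UMIs of the class (CPM), was 16809 CPM in control LSECs and 5098 CPM in Maf LSEC-KO LSECs, and 6 of the 8 were at least 2-fold lower. Summed endothelial markers were at 17618 and 12828 CPM, Kupffer cell markers at 64.9 and 114 CPM, and hepatocyte markers at 150 and 80.1 CPM. Summed stellate and mesenchymal markers were at 264 and 271 CPM, but single markers moved in opposite directions. Hgf, at 142 and 78.8 CPM, and Ecm1 were lower in Maf LSEC-KO LSECs. The other markers of that list were higher there, such as Dcn (16.1 and 82.6 CPM) and Col3a1 (2.83 and 16.4 CPM). The part of the other cell types in the values below was not tested. Of the clusters counted as LSECs for their endothelial markers, 4 were led by genes of other cells: control cluster 3 by hepatocyte and cluster 5 by hemoglobin genes, and Maf LSEC-KO cluster 9 by mesenchymal genes such as Dcn and Col3a1 and cluster 12 by platelet and hepatocyte genes. Without them, an alternative added after seeing the data, all 8 genes were still at least 8-fold higher and the median of their log2 ratios was 6.59, against 6.79 with them. Maf itself was at 3472 CPM in control LSECs and 125 CPM in Maf LSEC-KO LSECs, which is the direction the labels give.

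All 8 genes were higher in Maf LSEC-KO LSECs, between 29.5-fold for Pdlim3 and 233-fold for Pcp4l1 among those with more than 3 control UMIs. All 8 passed the level filter of at least 10 CPM in either library and 6 passed the filter of 50 CPM; Astn1 and Nav3 did not reach the latter. At 10 CPM or more, 1.42% of 9311 genes were at least 8-fold higher, and at 50 CPM or more, 0.665% of 4513 genes were. At least 32-fold higher were 7 of the 8, all but Pdlim3, beside 0.451% and 0.177% of genes at these 2 levels. The members were chosen on this contrast, so nothing is read from their counts against that background. The median log2 ratio over all genes was 0.105. In brackets below are exact 95% intervals, which cover counting error only and neither the spread between mice nor that between libraries. Levels are CPM of 3′-end UMIs, not divided by transcript length.

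**Figure D1:**
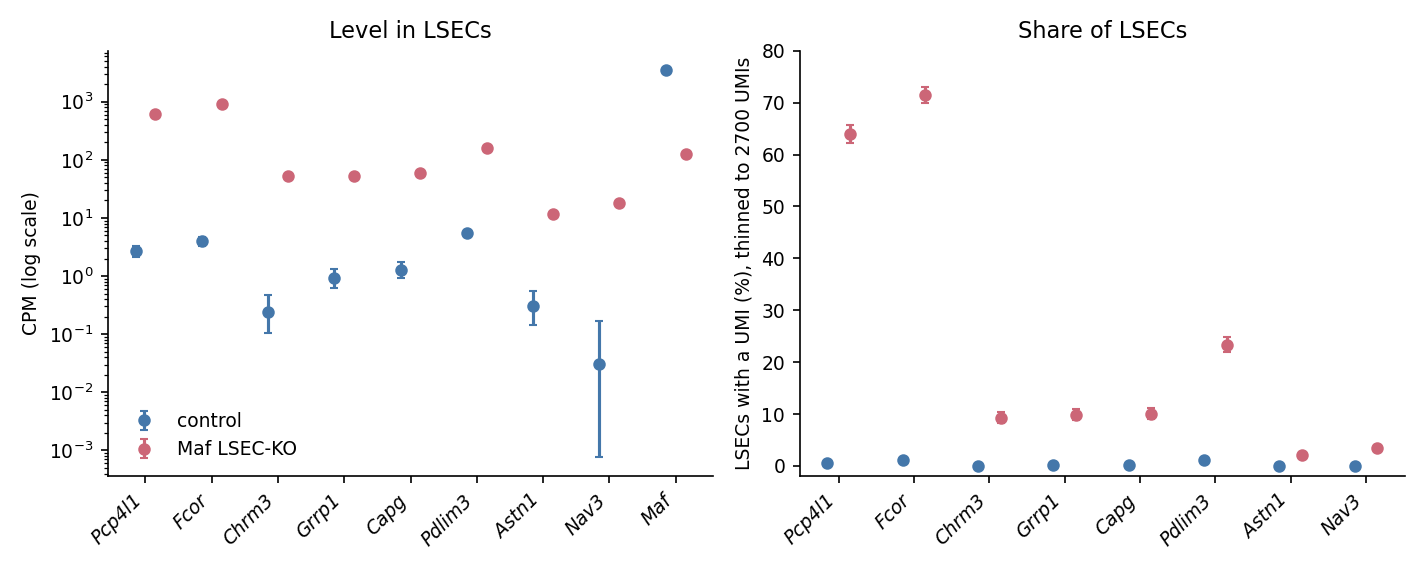
Left, level of each of the 8 genes and of Maf in LSECs of the control and the Maf LSEC-KO library (CPM, log axis); right, share of LSECs with a UMI of each gene after thinning every cell to 2700 UMIs. Each point is 1 library and bars are exact 95% counting intervals: the 8 genes lie at 5.42 CPM or below in control and at 11.6 CPM or above in Maf LSEC-KO, and Maf lies the other way round.

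Pcp4l1 and Fcor had the most UMIs. Pcp4l1 (chr1:171173262-171196268, minus strand, mm10), a relative of the calmodulin-binding Purkinje cell protein Pcp4, had 87 UMIs in control LSECs and 24835 in Maf LSEC-KO LSECs, which is 2.65 and 618 CPM and a log2 ratio of 7.87 [7.56 to 8.19]. Fcor (chr8:3671188-3672362, minus strand), a corepressor that acetylates the transcription factor Foxo1, had 131 and 37046 UMIs, or 3.99 and 922 CPM, with a log2 ratio of 7.85 [7.60 to 8.11]. Both were found in most knockout cells and few control cells: 86.0% of Maf LSEC-KO LSECs held a Pcp4l1 UMI and 86.8% an Fcor UMI, against 1.27% and 2.93% of control LSECs. Within cells holding them, the median was 7 UMIs for Pcp4l1 and 10 for Fcor, with up to 69 and 108 in a single cell. Foxo1, the partner of Fcor, was at 138 CPM in control LSECs and 145 CPM in Maf LSEC-KO LSECs. Of 7 genes of FOXO factors and their regulators, 3 reached 50 CPM and only Fcor was at least 2-fold higher (8.11% of all genes at that level were at least 2-fold higher, and 5.61% at least 2-fold lower).

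Chrm3 (chr13:9875486-10360847, minus strand), the M3 muscarinic acetylcholine receptor that signals through Gq proteins, had 8 UMIs in control LSECs and 2108 in Maf LSEC-KO LSECs (0.244 and 52.5 CPM; log2 ratio 7.75 [6.77 to 8.96]). A gene model inside a Chrm3 intron on the same strand, Gm47405, had 4 and 1110 UMIs. How reads were divided between these overlapping models depends on the authors' counting, and 6 annotated genes overlap Chrm3 in all. Downstream of the receptor, Gnaq was at 174 CPM in control LSECs and 118 CPM in Maf LSEC-KO LSECs, and Nos3, the endothelial nitric oxide synthase, was at 96.1 and 120 CPM. Of 18 genes of muscarinic receptors and their signalling, 8 reached 50 CPM and of these only Chrm3 was at least 2-fold higher. No gene of at least 50 CPM in any of these lists was 2-fold lower.

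Capg and Pdlim3 act on the actin cytoskeleton. Capg (chr6:72544391-72562983, plus strand), a gelsolin family protein that caps the barbed ends of actin filaments and is abundant in macrophages, had 42 UMIs in control LSECs and 2348 in Maf LSEC-KO LSECs (1.28 and 58.4 CPM; log2 ratio 5.51 [5.07 to 5.99]). Pdlim3 (chr8:45885461-45919548, plus strand), an actinin-binding PDZ-LIM protein known from muscle Z-discs, had 178 and 6424 UMIs (5.42 and 160 CPM; log2 ratio 4.88 [4.67 to 5.10]). Pdlim3 thus had the highest control level of the 8 genes. Of 10 capping and gelsolin family genes, 6 reached 50 CPM and 2 of them were at least 2-fold higher. These were Capg and Svil, the actin-binding supervillin (33.9 and 88.6 CPM; log2 ratio 1.39). Of 11 PDZ-LIM and actinin genes, 6 reached 50 CPM and of these only Pdlim3 was 2-fold higher, with Actn1, an actinin, at 33.7 and 64.2 CPM (log2 ratio 0.93). Below that level, Pdlim2 (log2 ratio 1.41) and Pdlim4 (1.24) were more than 2-fold higher, and none of the PDZ-LIM and actinin genes was 2-fold lower.

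Nav3 (chr10:109681259-110456204, minus strand), a microtubule-binding member of the neuron navigators, was found as 1 UMI in 4101 control LSECs, in a cell of the cluster led by hemoglobin genes, and as 718 UMIs in Maf LSEC-KO LSECs. Its levels were 0.0305 and 17.9 CPM, and with that single control count the log2 ratio of 9.20 has an interval of 6.71 to 14.50. Its family member Nav1 was at 422 CPM in control LSECs and 316 CPM in Maf LSEC-KO LSECs. Astn1 (chr1:158362273-158691781, plus strand), an adhesion protein of migrating neurons, had 10 and 466 UMIs (0.305 and 11.6 CPM; log2 ratio 5.25 [4.36 to 6.32]). Both genes were sparse also in the knockout library, at 14.1% of LSECs for Nav3 and 9.90% for Astn1. Of 9 navigator and plus-end microtubule genes, 6 reached 50 CPM and none of these was 2-fold higher or lower. Neither of the 2 astrotactins reached that level.

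Grrp1 (chr4:134251110-134254106, minus strand), a small gene named for a glycine- and arginine-rich protein, had 30 UMIs in control LSECs and 2100 in Maf LSEC-KO LSECs (0.914 and 52.3 CPM; log2 ratio 5.84 [5.32 to 6.41]). Its upstream sequence is shown because, of the members, it held the most of the letters searched for. In the 300-base RefSeq promoter windows (250 bases before the start and 50 after), of which 7 of the 8 members have one, TGCTGA, the core of a Maf recognition element, was found on either strand in 2 members, Pcp4l1 and Grrp1, and in 19.5% of all 32851 windows. The GATA factor motif AGATAA was found in Grrp1 alone (11.2% of all windows). The AP-1 motif TGANTCA was found in none of the 7 (7.81% of all windows). No 2 of these motifs overlap in the sequence below. A match here is a run of letters and not a binding site. The 250 bases before the RefSeq start of Grrp1 (GRCm38.p6, chr4:134254107-134254356, minus strand, gene strand shown 5′ to 3′, capitals for the motif letters, each in its reverse complement) read as follows.
Grrp1: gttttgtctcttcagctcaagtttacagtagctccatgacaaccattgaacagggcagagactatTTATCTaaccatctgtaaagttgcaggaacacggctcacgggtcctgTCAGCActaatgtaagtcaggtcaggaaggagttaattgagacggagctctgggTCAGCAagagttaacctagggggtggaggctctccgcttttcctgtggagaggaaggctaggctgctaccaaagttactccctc

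Depth differed between the libraries, so cells were also thinned to 2700 UMIs, leaving out shallower ones, so that 3695 of 4101 control and 3064 of 3251 Maf LSEC-KO LSECs remained. The share of LSECs with a Pcp4l1 UMI was then 63.9% in Maf LSEC-KO and 0.514% in control, and that with an Fcor UMI was 71.5% and 1.08%. Chrm3 was found in 9.24% and 0.0271%, Grrp1 in 9.86% and 0.217%, Capg in 10.1% and 0.244%, and Pdlim3 in 23.4% and 1.19%. For Nav3 the shares were 3.39% and 0.0271%, and for Astn1 they were 2.19% and 0.0541%. The separation of the libraries was thus seen for all 8 genes at equal depth. Unthinned, the 99 B and T/NK cell-like cells of the Maf LSEC-KO library (median 5857 UMIs) give the share in cells that should lack LSEC genes: 17.2% of them held a Pcp4l1 UMI, 28.3% an Fcor UMI, 34.3% a Capg UMI, 7.07% a Pdlim3 UMI, 5.05% a Grrp1 UMI, 3.03% a Chrm3 UMI, and 1.01% an Astn1 or a Nav3 UMI. Thinned likewise (95 cells), these shares were 7.37% for Pcp4l1, 21.1% for Fcor and 22.1% for Capg, and at most 2.11% for the other 5. Thinned and unthinned, they lay below those of Maf LSEC-KO LSECs for 7 of the 8 genes; Capg, a gene of leukocytes, was found in a larger share of the thinned B and T/NK cell-like cells than of the LSECs (10.1%). In the control library, 2 of 76 such cells (median 6959.5 UMIs) held an Fcor UMI, 1 a Chrm3 UMI and 1 a Pdlim3 UMI, and none held Pcp4l1, Grrp1, Astn1 or Nav3, which allows a share of up to 3.95%. These control cells held much LSEC RNA. Clec4g was at 68.1% of its LSEC level in the 47 B cell-like cells and at 17.7% in the 29 T/NK cell-like cells. They are few and are no background free of LSEC RNA. Whether the control LSEC shares of these 7 genes exceed background can therefore not be decided from them.

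Counted together, most knockout LSECs held several of the genes. At least 1 of the 8 was found in 95.6% of Maf LSEC-KO LSECs (3107 of 3251) and in 7.97% of control LSECs (327 of 4101); after thinning, the shares were 90.3% and 3.19%. At least 3 were found in 74.9% and 0.146%, after thinning in 28.7% and 0.0271%. The median Maf LSEC-KO LSEC held 4 of the 8, and 16 cells held all 8; no control LSEC held 5 or more. The 6 control LSECs with at least 3 members carried 39 of the 487 member UMIs of all control LSECs (8.01%). Of these 6 cells, 5 lay in control cluster 7, which Igfbp5, Nrg1, Ednrb and Adgrg6 lead, and 1 had no Maf UMI.

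The next comparison asked how the genes stood in the knockout cells that still held Maf RNA. Of the Maf LSEC-KO LSECs, 2556 had no Maf UMI, 346 had 1, 136 had 2 to 4, 126 had 5 to 19, and 87 had 20 or more. Cells of the first class make up most of the knockout LSECs on which the genes were chosen, so these levels too are a description. Pcp4l1 was at 643, 665, 608, 244 and 95.1 CPM across the 5 classes in that order. Fcor was at 944, 1004, 949, 449 and 338 CPM, and Pdlim3 was at 165, 177, 164, 58.3 and 29.7 CPM. The first 3 classes were thus close to each other and the last 2 were lower. The remaining 5 genes had the same shape: from no Maf UMI to 20 or more, Chrm3 went from 55.6 to 8.92 CPM, Grrp1 from 54.9 to 5.94, Capg from 60.6 to 9.91, Astn1 from 11.8 to 3.96 and Nav3 from 18.8 to 5.94. The median depth of the classes ranged from 8500 to 18009.5 UMIs per cell and did not follow this order, with 13613.5 UMIs in cells without a Maf UMI and 11965 in those with 20 or more.

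**Figure D2:**
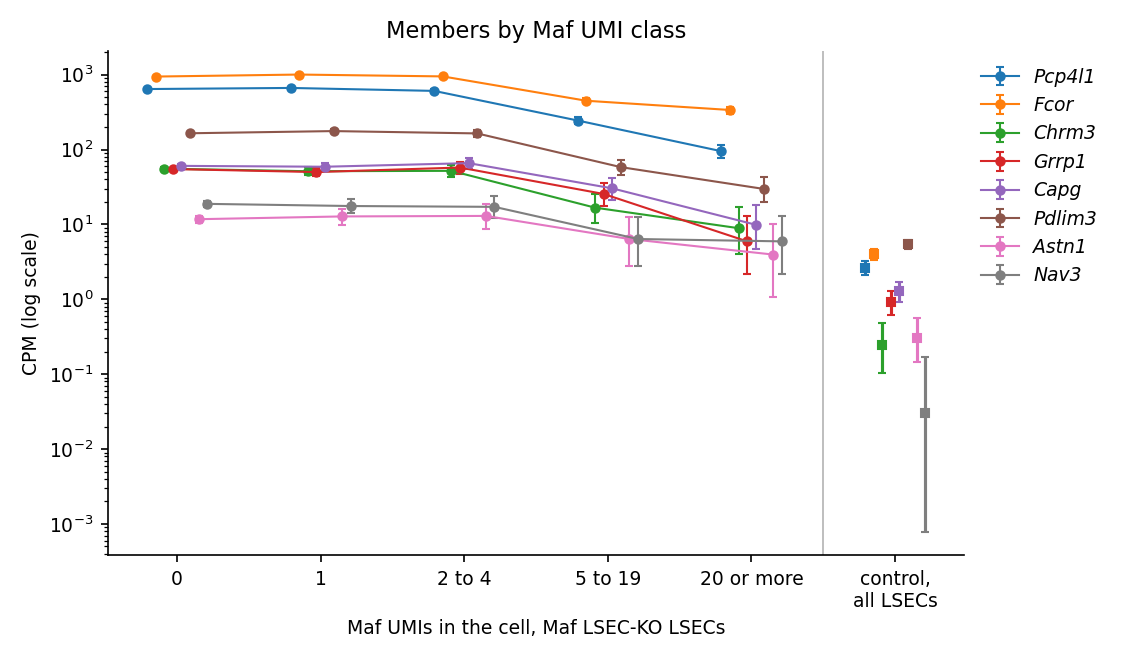
Level of each gene (CPM, log axis) in Maf LSEC-KO LSECs grouped by the Maf UMIs in the cell (circles joined by lines) and in all control LSECs (squares), with bars for exact 95% counting intervals and genes set apart sideways. Levels are similar up to 4 Maf UMIs, lower from 5 on, and lowest in control LSECs.

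Set against the 213 cells with at least 5 Maf UMIs, the cells without a Maf UMI were at least 2-fold higher for all 8 genes, with a median log2 ratio of 1.66 (0.0312 over all genes). None was 2-fold lower. In this contrast 3.1% of genes of at least 50 CPM were 2-fold higher and 4.2% were 2-fold lower. Shares of genes in the contrasts below are likewise of genes of at least 50 CPM in either class, unless another level is given. Members under that level, such as Astn1 and Nav3, are not among those genes. Chrm3 had the largest log2 ratio, 2.07, followed by Pcp4l1 and Pdlim3 with 1.86 each, while Fcor at 1.24 and Astn1 at 1.15 had the smallest. At least 3 members were found in 78.6% of the cells without a Maf UMI and in 16.4% of those with at least 5. Even so, the cells that held Maf RNA stood above control LSECs. The genes were chosen as low in these same control LSECs, and the Maf-holding cells are part of the knockout LSECs used for the choice. This contrast is therefore a description only. Cells with at least 5 Maf UMIs had all 8 genes at least 2-fold higher, with a median log2 ratio of 4.98. Of genes of at least 50 CPM, which only Pcp4l1 and Fcor of the 8 reached here, 1.95% were 2-fold higher and 0.611% 2-fold lower. In the 87 cells with 20 or more Maf UMIs all 8 were again at least 2-fold higher, with a median log2 ratio of 4.43 (range 2.45 to 7.61). Here too only Pcp4l1 and Fcor reached 50 CPM, and 1.04% of genes of that level were 2-fold higher and 0.473% 2-fold lower. These levels rest on 4 to 10 UMIs for Astn1, Grrp1, Nav3, Chrm3 and Capg. Of those 87 cells, 83 (95.4%) lay in Maf LSEC-KO cluster 7, led by Dnase1l3, Maf and Fcgr2b. Of the 213 cells with at least 5 Maf UMIs, 169 (79.3%) did. Of the cells that are not endothelial, T/NK cell-like cells of the same library held Pcp4l1 at 61.5 CPM and Fcor at 120 CPM, and B cell-like cells held them at 270 and 227 CPM, beside 95.1 and 338 CPM in the LSECs with 20 or more Maf UMIs. Fcor was at 569 CPM in an unnamed cluster of 70 cells led by Cd209a and Ccr2. These LSECs thus lay above all non-endothelial classes for neither gene. The same held for Pdlim3 (61.1 CPM in that cluster against 29.7) and Chrm3 (24.8 in cholangiocyte-like cells against 8.92). It also held, in B cell-like cells, for Grrp1 (23.7 against 5.94), Capg (303 against 9.91) and Astn1 (4.74, 1 UMI, against 3.96). Nav3, at 5.94 CPM, was at most 5.26 CPM (2 UMIs) in the non-endothelial classes. The part of free RNA in the levels of the non-endothelial classes was not tested.

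A few cells without a Maf UMI lacked the genes. Of the 2556, 54 (2.11%) held no UMI of any member. Their median depth was 2605.5 UMIs, against 13962.5 in the others.

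Within the knockout cells without a Maf UMI, cycling state moved the genes little. The 603 cycling cells, defined by at least 3 of 12 cell cycle genes, had lower levels than the other 1953 for all 8 genes, with log2 ratios from -0.76 for Chrm3 to -0.07 for Capg and a median of -0.36 (-0.0149 over all genes). For 6 of the 8 the counting interval lay below 0, the exceptions being Grrp1 and Capg. No member was 2-fold lower or higher, where 0.134% of genes were 2-fold lower and 5.14% were 2-fold higher.

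Astn1, Nav3, Chrm3 and Pdlim3 varied with other capillary genes, in different directions. In cells with a UMI of Kcne3, a potassium channel subunit of endothelial tip cells, Pdlim3 was at 95.3 CPM against 193 CPM in cells without one. Chrm3 was at 33.8 against 64.2 CPM, whereas Nav3 was at 26.7 against 15.7 CPM. Pdlim3 was therefore the 1 member at least 2-fold lower (log2 ratio -1.02; 0.279% of genes were), and none was 2-fold higher (0.233% of genes were). In cells with a UMI of Ly6c1, a surface protein of capillary endothelium, Astn1 was at 9.82 CPM against 25.2 CPM in cells without one, a log2 ratio of -1.36. Of genes of at least 50 CPM, a level that Astn1 did not reach, 0.207% were at least 2-fold lower. Nav3 (log2 ratio -0.46) and Chrm3 (-0.26) were also lower in cells with a Ly6c1 UMI, with intervals below 0. Pdlim3 moved the other way there, at 174 against 102 CPM (log2 ratio 0.77). So did Capg, Grrp1, Pcp4l1 and Fcor, with log2 ratios from 0.29 to 0.54. No member was 2-fold higher (0.345% of genes were). Cells with a Kcne3 UMI had a median of 20155.5 UMIs and those without one 12223, and for Ly6c1 the medians were 15107.5 and 6617; the part of depth in these differences was not tested.

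The knockout clusters show the same unevenness. Astn1 was at 28.2 CPM in cluster 1 (1022 cells) and 3.47 CPM in cluster 2 (1042 cells), and Nav3 was at 30.9 and 11.5 CPM in these and at 56.0 CPM in cluster 9 (88 cells, 50 UMIs), the cluster led by mesenchymal genes. Pdlim3 reached 366 CPM in cluster 6, led by Gja5, Npr3 and Nrg1, against 129 CPM in cluster 1. By contrast, Pcp4l1 was at 666 and 692 CPM in clusters 1 and 2 and at 76.3 CPM in cluster 7, the cluster in which most cells with high Maf lay. Clusters were built from all genes, the 8 included, so these values are a description.

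Endothelial cells with a UMI of Vwf (von Willebrand factor, known from larger vessels) were left out of the LSECs and were looked at apart. There were 1182 in the Maf LSEC-KO library and 161 in the control library, so the filter removed more knockout cells. The 1182 held Stab1 at 90.5%, Clec4g at 76.4%, Stab2 at 64.8% and Lyve1 at 41.1% of the Maf LSEC-KO LSEC level. A Vwf UMI therefore does not set cells of larger vessels apart from sinusoidal cells in the knockout. The 580 Maf LSEC-KO endothelial cells with at least 3 Vwf UMIs had Fcor at 551 CPM, against 922 CPM in LSECs (log2 ratio -0.74). The other 7 genes differed by log2 ratios from -0.34 to 0.09. No member was 2-fold lower (0.482% of genes were) or higher (1.97% of genes were). In the control library the 161 endothelial cells with a Vwf UMI held some of the members that control LSECs nearly lacked. Grrp1 had 36 UMIs there and 30 in the 4101 LSECs, or 20.9 against 0.914 CPM, a 22.8-fold difference. Pdlim3 was at 50.4 against 5.42 CPM, Pcp4l1 at 6.95 against 2.65 CPM (12 UMIs) and Capg at 5.79 against 1.28 CPM (10 UMIs). These 4 of the 8 were at least 2-fold higher, as were 3.96% of all genes of at least 50 CPM, a level that only Pdlim3 of the 4 reached. Fcor, with 2 UMIs, had a lower value, but its interval includes 0 (log2 ratio -1.78 [-4.85 to 0.10]). Lower values were also given by Chrm3 and Nav3, with 0 UMIs, where 1.32% of all genes were 2-fold lower. A count of 0 in these cells allows up to 1.74 CPM, which is above the LSEC levels of Chrm3 and Nav3, so no difference was detectable for this pair at this depth.

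**Figure D3:**
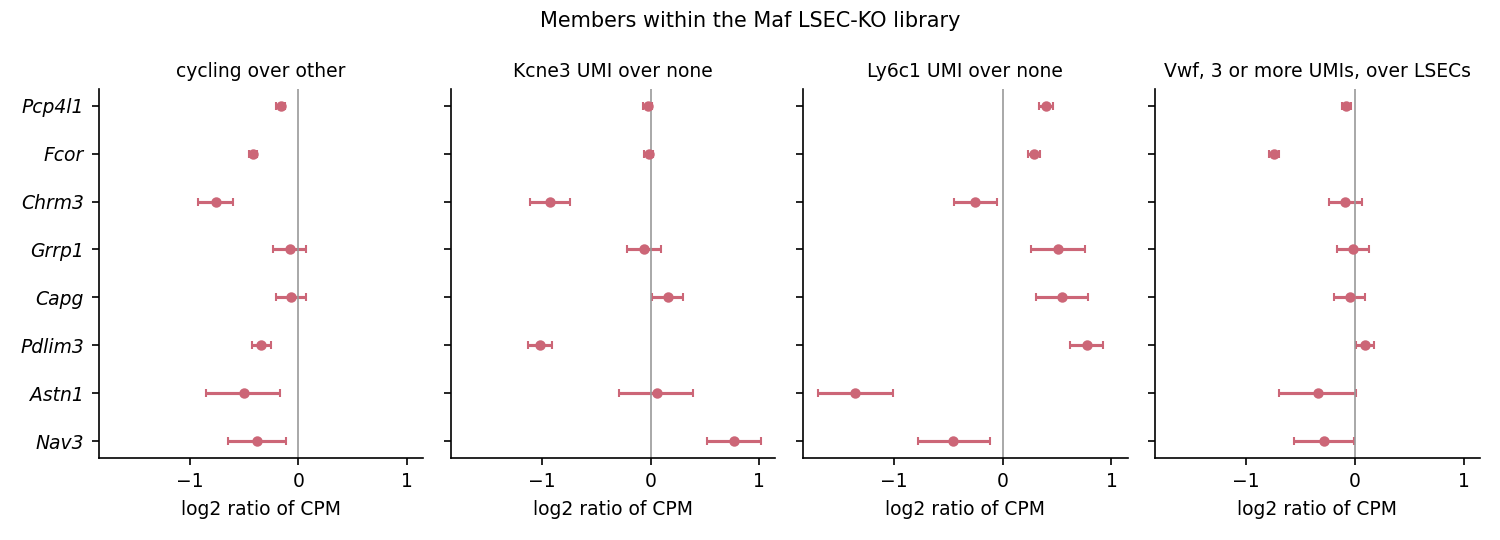
Log2 ratio of CPM of each gene for 4 contrasts within the Maf LSEC-KO library, with bars for exact 95% counting intervals; the first 3 (cycling over other cells, with over without a Kcne3 UMI, with over without a Ly6c1 UMI) are in LSECs without a Maf UMI, and the last sets endothelial cells with at least 3 Vwf UMIs over LSECs. All 8 genes lie below 0 in the first contrast, and the genes fall on both sides of 0 in the other 3.

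Among control LSECs, cluster 7, which shares the leading genes Nrg1, Atp13a3, Adgrg6, Sdc1 and Jag1 with Maf LSEC-KO cluster 6, stood out for Pdlim3. Its 178 cells carried 110 of the 178 Pdlim3 UMIs of all control LSECs, at 85.2 CPM against 2.16 CPM in the other control LSECs. Grrp1 was at 10.1 against 0.539 CPM and Pcp4l1 at 13.9 against 2.19 CPM in the same cells. These 3 members were at least 2-fold higher in the cluster. Of genes of at least 50 CPM, a level that only Pdlim3 of the 3 reached, 2.47% were. The control level of Pdlim3 therefore rests largely on this cluster. No UMI of Chrm3, Astn1 or Nav3 was found in it (2.59% of genes were at least 2-fold lower), and at 8, 10 and 1 UMIs in the other control LSECs no difference was detectable for these.

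Across cell classes, Pcp4l1 in the Maf LSEC-KO library was highest in LSECs (618 CPM) and in endothelial cells with a Vwf UMI (618 CPM), whose intervals overlap. It was next in B cell-like cells (270 CPM), where the 57 UMIs lay in 7 of 39 cells, then in Kupffer cell and macrophage-like cells (79.2 CPM), T/NK cell-like cells (61.5 CPM, 18 UMIs in 60 cells), the 70 cells of an unnamed cluster led by Cd209a, Ccr2 and MHC class II genes (38.9 CPM) and neutrophil-like cells (36.8 CPM, 14 UMIs) and last in cholangiocyte-like cells (9.55 CPM, 5 UMIs in 37 cells). From the Kupffer cell class on, each class has an interval that overlaps that of the next in this order. In the control library Pcp4l1 had 0 UMIs in each of the B, T/NK, neutrophil and Kupffer cell-like classes, with an upper limit of 1.98 CPM in the 219 Kupffer cell and macrophage-like cells. The gene thus showed the same direction between the libraries in cells that are not endothelial.

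Fcor followed another order: LSECs were highest (922 CPM), then endothelial cells with a Vwf UMI (690 CPM), the unnamed cluster (569 CPM), B cell-like cells (227 CPM, 48 UMIs), Kupffer cell and macrophage-like (131 CPM), neutrophil-like (129 CPM), T/NK cell-like (120 CPM) and cholangiocyte-like cells (78.3 CPM, 41 UMIs in 37 cells). Among the last 4, each interval overlaps that of the next in this order. In the control library no class exceeded 12.5 CPM, and that value is 2 UMIs in 40 neutrophil-like cells.

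Capg was the member with a clear level outside the endothelium in control mice, at 121 CPM in Kupffer cell and macrophage-like cells and at 162 CPM in B cell-like cells (68 UMIs in 47 cells). In the Maf LSEC-KO library the gene was at 72.7 CPM in Kupffer cell and macrophage-like cells, above the 58.4 CPM in LSECs. Chrm3 had 5 UMIs in 40 control neutrophil-like cells (31.2 CPM), a higher level than in control LSECs. For Grrp1, Astn1 and Nav3, no cell class outside the endothelium, doublets aside, held more than 17 UMIs in either library.

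**Figure D4:**
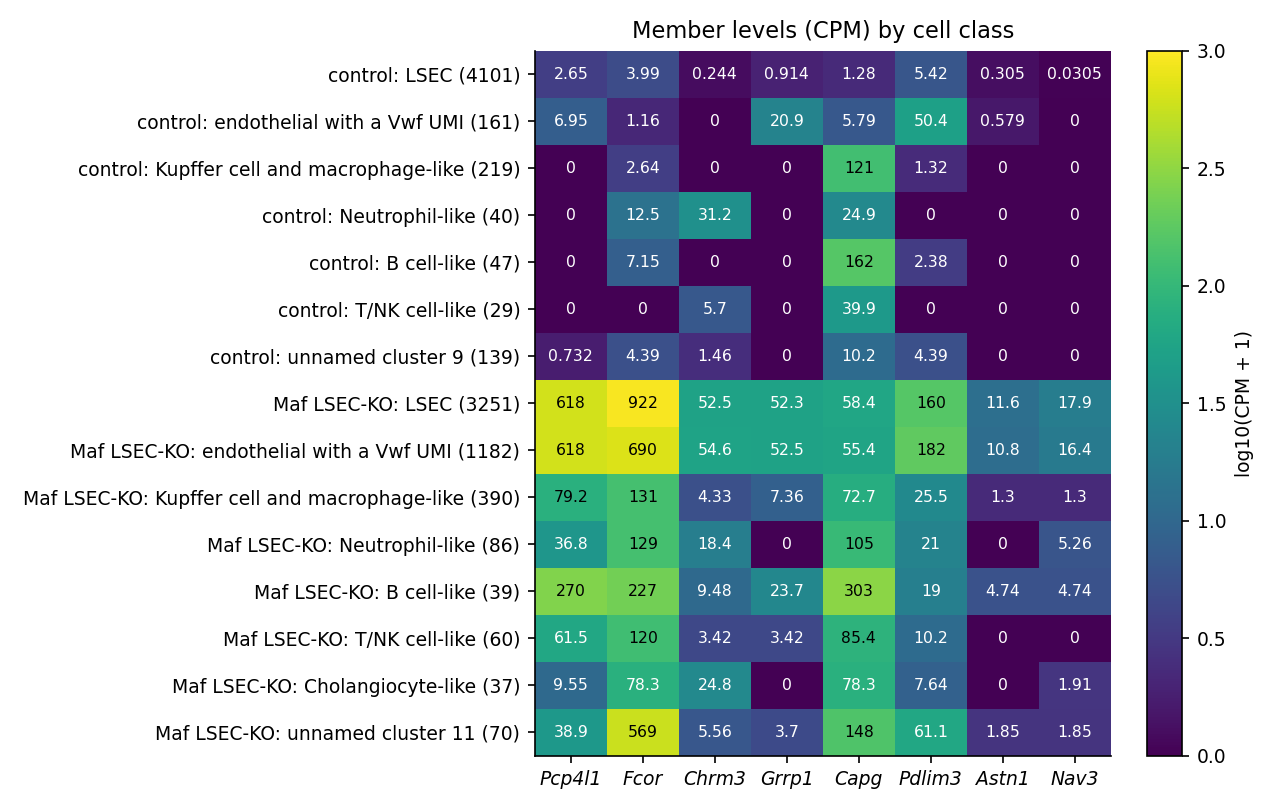
Heat map of the level of each gene (columns) by library and cell class (rows, number of cells in brackets); the printed values are CPM and the colour is log10(CPM + 1). Capg is the gene with levels of 121 and 162 CPM outside the endothelium in control cells, and Pcp4l1 and Fcor are the highest in the endothelial classes of the Maf LSEC-KO library.

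The levels in Kupffer cell and macrophage-like cells were set beside those of LSEC genes in the same cells, since free RNA of LSECs can enter any droplet. As a percent of the level in Maf LSEC-KO LSECs, 7 of the 8 genes lay between 7.27% (Nav3) and 15.98% (Pdlim3) in these cells. Clec4g lay at 13.6%, Kdr at 11.3%, Ly6c1 at 15.5%, Lyve1 at 10.2% and Pecam1 at 17.8%, and Stab1 and Stab2, scavenger receptors of LSECs, lay higher, at 40.4% and 55.0%. Capg was at 124%. In the unnamed cluster Fcor was at 61.7% of its LSEC level and Pdlim3 at 38.2%, where Kdr was at 8.24%, Clec4g at 23.1% and Trappc5, a neighbour of Fcor, at 98.4%. In the Kupffer cell class Fcor was at 14.2% and Pcp4l1 at 12.8%. Fcor and Pdlim3 in the unnamed cluster lay above Kdr and Clec4g. Of its 70 cells, 42 held the 307 Fcor UMIs, while the 33 Pdlim3 UMIs lay in only 5.

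Fcor lies close to Clec4g, whose promoter drives the Cre: its annotated start is 48.3 kb from that of Clec4g on the same chromosome and strand. It was looked at with its neighbours after its values had been seen. The sequence upstream of Fcor is shown because its nearest neighbour, the long noncoding RNA Gm39121, starts 68 bases away on the opposite strand. The 250 bases before the RefSeq start of Fcor (GRCm38.p6, chr8:3672392-3672641, minus strand, gene strand shown 5′ to 3′, capitals for the 38 bases between the RefSeq start of Fcor and the annotated start of Gm39121) read as follows.
Fcor: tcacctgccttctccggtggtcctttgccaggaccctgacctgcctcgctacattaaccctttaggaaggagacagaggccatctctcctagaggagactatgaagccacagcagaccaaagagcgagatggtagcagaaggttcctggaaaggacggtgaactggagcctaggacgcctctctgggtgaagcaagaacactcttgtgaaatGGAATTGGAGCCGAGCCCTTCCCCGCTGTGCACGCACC

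Of the genes within 100 kb of Fcor, 7 reached 10 CPM in LSECs; 4 of these were at least 2-fold higher in the Maf LSEC-KO library and 1, Clec4g, was 2-fold lower, where 10.5% of all genes of at least 10 CPM were higher and 4.55% lower by that much. Trappc5, which encodes a subunit of the TRAPP vesicle-tethering complex, was at 85.8 CPM in control LSECs and 774 CPM in Maf LSEC-KO LSECs (log2 ratio 3.17). The gene model Gm45231 was at 0.853 and 38.1 CPM (44.6-fold), and Gm39121 was at 0 and 10.4 CPM, at least 114-fold higher against a floor of 3 counts over all control LSECs. Stxbp2 was at 12.4 and 25.1 CPM, whereas Pet100 was at 111 CPM in both libraries. Clec4g itself was at 3018 CPM in control LSECs and 1509 CPM in Maf LSEC-KO LSECs. Genes that were higher, lower and little different in the knockout thus lie side by side here.

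The same stretch of chromosome 8 also differed between the libraries in cells other than LSECs. In neutrophil-like cells Mcemp1, a membrane protein of myeloid cells, was at 386 CPM in control and 6310 CPM in Maf LSEC-KO, and Retn, resistin, was at 31.2 (5 UMIs in 40 cells) and 263 CPM. In B and T/NK cell-like cells Fcer2a, the low-affinity IgE receptor CD23 of B cells, was at 102 and 3009 CPM. Trappc5 was at 72.2 and 641 CPM in these, at 56.1 and 518 CPM in neutrophil-like cells and at 61.4 and 249 CPM in Kupffer cell and macrophage-like cells. Fcor went from 2.64 to 131 CPM in the Kupffer cell class, from 12.5 to 129 CPM in neutrophil-like cells and from 5.04 to 165 CPM in B and T/NK cell-like cells. In this last class Clec4g, which is not a gene of lymphocytes, went from 1607 to 197 CPM.

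**Figure D5:**
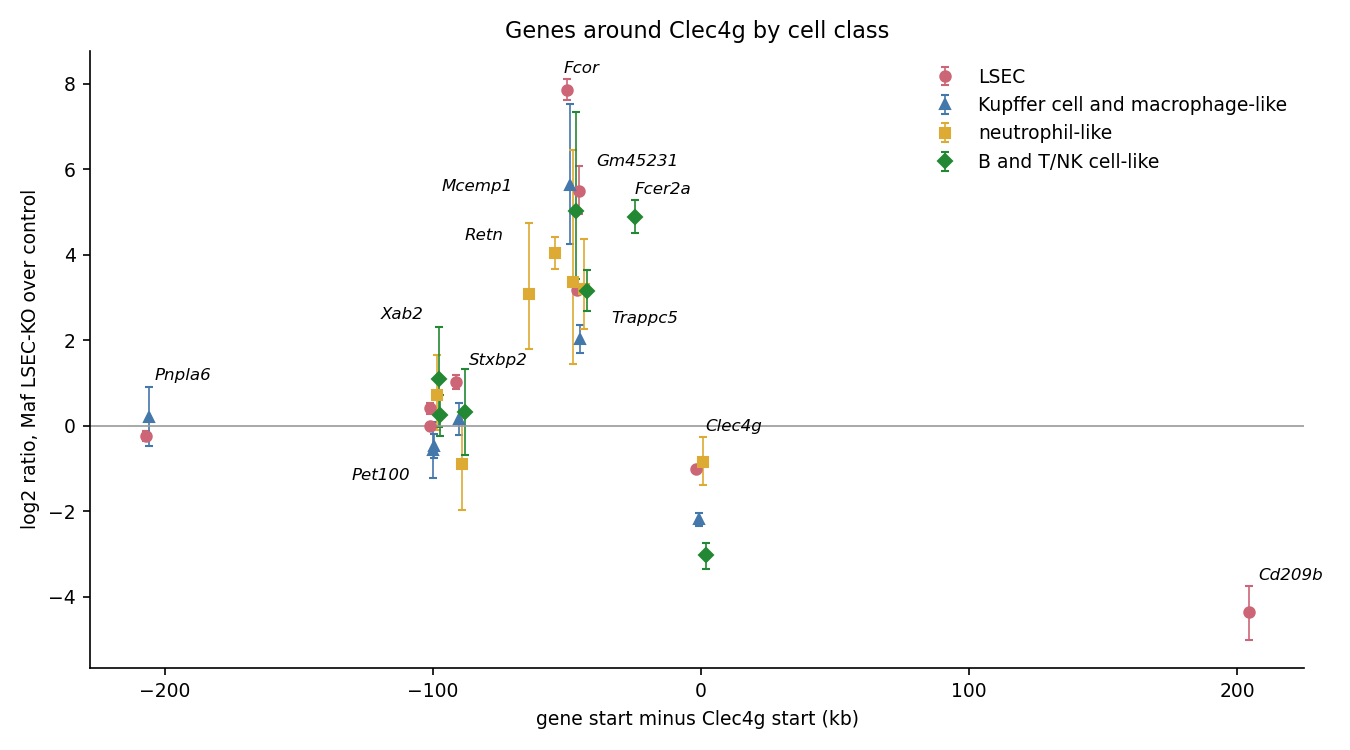
Log2 ratio of Maf LSEC-KO over control for genes around Clec4g (start of each gene minus the start of Clec4g, in kb), in LSECs, Kupffer cell and macrophage-like, neutrophil-like and B and T/NK cell-like cells. Genes with at least 30 UMIs in both libraries together and more than 0 in control are plotted, bars are 95% counting intervals, and points of the 4 classes are set apart sideways by up to 1.8 kb; the genes about 25 to 65 kb from Clec4g lie above 0 in every class plotted.

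Genes at least 8-fold higher in the knockout library were counted by class, among genes of at least 50 CPM. In neutrophil-like cells 0.375% of genes were called, 11 in all, and 4 of the 11 start within 200 kb of Clec4g, where 8 genes could be tested. In B and T/NK cell-like cells 0.171% were called, 8 in all, of which 4 start within 200 kb of Clec4g, where 6 genes could be tested. In Kupffer cell and macrophage-like cells 0.148% were called and 1 of the 6 called genes lay there, where 5 genes could be tested. Of the 30 genes called in LSECs, 2 lay there, where 4 could be tested. Of the 7 called in the LSECs with 20 or more Maf UMIs (0.166%), 1 did, again with 4 that could be tested. What the Clec4g-iCre transgene holds besides the promoter and iCre is not given in the sources used here. Since every Maf LSEC-KO mouse carried it and no control mouse did, its presence and the loss of Maf cannot be told apart as the source of the Fcor ratio.

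Neighbours were counted around the other members too. Of the genes within 100 kb that reached 10 CPM, 0 of 9 were at least 2-fold higher around Pcp4l1 (1, Fcer1g, was 2-fold lower), 0 of 4 around Capg, 1 of 3 around Grrp1 (Zfp593, 27.7 CPM in Maf LSEC-KO LSECs, 289 control UMIs against 1115) and 1 of 2 around Pdlim3 (Ankrd37, 1.64 CPM in control against 40.1 CPM). The only such gene around Chrm3 was Gm47405, and there was none around Astn1 or Nav3.

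Co-detection of the genes was counted in the 2556 knockout LSECs without a Maf UMI, against the number of cells expected for each pair from their separate shares in 10 depth bins. Over the 28 pairs the median of observed over expected was 1.01 (range 0.876 to 1.64), and 18 pairs were above 1. Astn1 and Nav3 shared the most for their number, 74 cells against 45.2 expected. Chrm3 and Astn1 were next with 145 against 109. Pdlim3 and Nav3 were found together least, in 202 cells against 230 expected (0.876). Without the depth bins the median was 1.09. The pairs thus differ from each other, while the typical pair was found together about as often as its shares give.

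The genes whose pattern was most like that of each member were named by Pearson's correlation of log2(CPM + 1) over 17 cell classes of both libraries, across 6945 genes. The classes include the LSECs of both libraries, on whose contrast the members were chosen. A high r with other genes that differ between the libraries follows in part from that choice, so these values only describe. Over these classes, which share libraries and free RNA, Pcp4l1 and Pdlim3 were most like Ly6c1 (r of 0.946 and 0.966). Grrp1 and Astn1 were most like Cd34, a capillary surface marker (0.958 each), and Capg was most like the glycolytic gene Aldoa (0.931). Fcor and Chrm3 were most like Trappc5 (0.963 and 0.938), and Nav3 was most like Chrm3 (0.967). Ly6c1 was at 8.35 CPM in control LSECs and 592 CPM in Maf LSEC-KO LSECs, and Cd34 was at 30.01 and 385 CPM.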

How the data were processed

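Single-cell libraries (10x Genomics 3′ v3.1 chemistry) of 1 control and 1 Maf LSEC-KO pool were deposited as UMI counts per gene and barcode, which the authors made with Cell Ranger 6.0.2 on mm10; their notes also name Seurat 5.0.1. These counts are raw and not normalized. The 2 libraries held 47681895 and 89872764 UMIs in 5664 and 7091 barcodes. Barcodes under 1500 UMIs or 750 genes were left out. Cells were clustered per library with Seurat 5.3.0 (16 and 20 principal components, resolution 0.3), with no gene left out beforehand. Clusters were named from markers. Then 225 control and 308 Maf LSEC-KO doublets were removed (4.53% and 5.67%, set by an expected rate because the automatic limit called 0). Endothelial cells with a Vwf UMI were kept apart. UMIs were summed per class and divided by the class total without mitochondrial and ribosomal protein genes, giving CPM. Ratios carry exact 95% intervals for counting error. No test was run, since each genotype is 1 library, and the members and gene lists were chosen with earlier results of these data known. Named genes were the members, Maf, family lists (1 of which is not reported here), and the 3 genes most alike to each member; genes around Clec4g and other neighbours were named after their values were seen. Positions come from GENCODE vM21 (GRCm38, the mm10 build), and sequences from RefSeq (GRCm38.p6). The method was tested on simulated data. Python 3.11.15, scipy 1.17.1 and R 4.3.3 were used. Alternatives covered doublets, the Vwf filter, other markers, mitochondrial UMIs, depth, thinning and scaling with edgeR 4.0.16 and DESeq2 1.42.0.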

Additional observations from a re-analysis of the deposited data

Results flagged for a closer look

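Barcodes under 1500 UMIs enter none of the comparisons above. In the Maf LSEC-KO library (1565 barcodes) all 8 genes were above the limit that a count of 0 allows there and above the control barcodes. For 6 of them the counting interval also lay above that of the control barcodes. Pcp4l1 was at 374 CPM, Fcor at 765 CPM, Chrm3 at 27.0 CPM, Grrp1 at 43.4 CPM, Capg at 51.6 CPM and Pdlim3 at 106 CPM. In the 657 control barcodes of that kind, Capg was at 13.5 CPM and the other 7 genes had 0 UMIs, which allows up to 8.08 CPM. Astn1 and Nav3 were at 9.38 CPM each (8 UMIs) in the Maf LSEC-KO barcodes, with intervals that overlap those of the control.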

How the results depend on the processing

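All 8 genes stayed at least 8-fold higher in Maf LSEC-KO LSECs under each of the 11 alternatives tried for their ratios, with log2 ratios from 4.44 to 9.27 and none reversed. Of 88 values, 85 moved by no more than their counting interval, and 3 moved further: Grrp1 (4.78) and Pdlim3 (4.44) with Vwf cells kept, and Fcor (8.14) without cells carrying markers of other types. Another scaling shifted every log2 ratio by -0.170 (TMM), -0.179 (DESeq2) or -0.190 (UMIs of all genes). The number of genes at least 8-fold higher, 30 at 50 CPM, was 132 at 10 CPM, 543 with no minimum and 17 per UMIs of all genes. With Maf kept defined by at least 2 UMIs in place of 5, the median log2 ratio was 0.63 in place of 1.66, and with Vwf cells kept the cycling median was -0.17 in place of -0.36. The share of control LSECs with a member UMI (7.97%) was 9.10% with Vwf cells kept, 3.19% and 5.78% thinned to 2700 and 6000 UMIs, and 9.12% without the 4 clusters led by genes of other cells (control 3 and 5, Maf LSEC-KO 9 and 12), an alternative chosen after seeing the data, in which Nav3 had no control UMI left and its log2 ratio was at least 7.41 against a floor of 3 counts. That of Maf LSEC-KO LSECs (95.6%) was 96.6% without cells over 10% mitochondrial UMIs, 96.9% at a minimum of 3000 UMIs, and 90.3% and 96.7% thinned to 2700 and 6000 UMIs. Thinning removes counts and also leaves out shallower cells (2715 control and 2642 Maf LSEC-KO LSECs remained at 6000 UMIs). The other causes were not tested. No paired analysis was possible because each group is 1 library, and no replicate could be left out. Depth limits most the control levels of Nav3, Chrm3 and Astn1, which rest on 10 UMIs or fewer.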
